A study of Mus musculus with 8 samples.

Results

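The matrix metalloproteinase (Mmp), ADAMTS (Adamts) and tissue inhibitor of metalloproteinases (Timp) genes were examined in mRNA-seq libraries of liver cells from LRP1 eKO and WT mice. These families were chosen with earlier results of these data known. Their rows in the gene table were those whose symbol is Mmp, Adamts or Timp followed by a number. An a or b was allowed after an Mmp number, and all rows that matched were taken, whatever their values. This gave 46 of 22520 protein-coding genes, of which 23 were Mmp genes, 19 were Adamts genes and 4 were Timp genes. The study asked which genes respond when endothelial cells (ECs) lose LRP1, and 8 libraries were available for liver. The 4 WT libraries came from LRP1 f/f; Cdh5-CreER-/- mice and the 4 LRP1 eKO libraries from LRP1 f/f; Cdh5-CreER+/- mice, all of the C57BL/6 strain at postnatal day 14. Both groups therefore carried the floxed LRP1 alleles, and only the LRP1 eKO mice carried the inducible CreER recombinase, which the Cdh5 promoter directs to ECs. When it was induced is not given in the sources used here. The cells were selected with beads coated with a PECAM-1 antibody. Whether each library came from a separate mouse is not stated in the labels, so p-values measure only the spread between these libraries.

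Matrix metalloproteinases are zinc-dependent enzymes, secreted or anchored in the cell membrane, that cleave collagens, gelatins and other proteins of the extracellular matrix. ADAMTS enzymes are secreted relatives with thrombospondin repeats that cleave proteoglycans such as versican, trim procollagens or cut von Willebrand factor. TIMPs bind the active site of these enzymes and block them, and in liver the balance of enzymes and TIMPs is known for its role in matrix turnover and fibrosis. LRP1 is an endocytic receptor that takes up several of these proteins at the cell surface, among them MMP13, MMP9, ADAMTS5 and TIMP3. The libraries measure mRNA, and uptake of the proteins was not measured in them.

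The values are quantile-normalized signals, so that the libraries share nearly the same distribution of values, with sums of 484445 to 485947, and the depth of each library is unknown. The signal is not stated to be scaled to gene length, so levels are compared between libraries, and between genes in the marker check alone, where they were also divided by exon length. Lrp1, the targeted gene, had a mean of 65.5 ± 13.3 for WT and fell to 4.41 ± 1.65 after deletion (SD, n = 4 each). Markers went against the endothelial label. Pecam1, whose product the beads bind, had a signal of 1.53 to 3.85 and Cdh5 of 1.26 to 4.99, whereas the mesothelial genes Msln and Upk1b stood at 837 to 1370 and 767 to 1111, Acta2 at 756 to 1099 and the collagen gene Col1a2 at 616 to 889. Per kilobase of exon in GENCODE M21, Pecam1 and Cdh5 reached at most 0.618 and 1.19, and the lowest value among the other markers named was 49.5, for Col1a2. The libraries are therefore called liver cell libraries below. In which of these cells Lrp1 was lost was not tested. The summed signal of 12 macrophage markers was 187, 204, 219 and 112 in WT replicates 1 to 4, and 722, 52.1, 658 and 387 in LRP1 eKO replicates 1 to 4. WT replicate 4 was the WT library farthest from its group's median for 17 of the 23 members tested (73.9%, against 61.7% of all genes), and LRP1 eKO replicate 2 was the farthest in its group for 16 of 23 (69.6%, against 37.2%).

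Of the 46 genes, 10 Mmp genes form 1 cluster on chromosome 9 (GRCm38, 7272514 to 7699585), in the order Mmp13, Mmp12, Mmp1b, Mmp3, Mmp1a, Mmp10, Mmp8, Mmp27, Mmp20 and Mmp7, with 0 other protein-coding genes between them. Promoters of 32 of the 46 genes were found in RefSeq (GRCm38.p6), as 35 sequences of 300 bases from 250 before to 50 after a start site. The AP-1 motif TGANTCA, which Fos and Jun proteins bind, was sought on both strands and was present in 8 of these 35 promoters (22.9%), against 7.81% of all 32851 promoters of that length. All 8 belong to the cluster, in which Mmp8 and Mmp27 were without the motif, and 0 of the 22 genes outside the cluster had it. The promoters of Mmp13 and Mmp10, which rose in LRP1 eKO libraries, of Mmp3, whose signal stayed within a narrow range, and of Mmp8 are shown 5′ to 3′ on the plus strand because these neighbours differ in their values below. Capitals mark AP-1 matches and matches of the FoxO motif TGTTTAC on either strand, and the transcript starts 50 bases before the end.
Mmp13, chr9:7272264-7272563: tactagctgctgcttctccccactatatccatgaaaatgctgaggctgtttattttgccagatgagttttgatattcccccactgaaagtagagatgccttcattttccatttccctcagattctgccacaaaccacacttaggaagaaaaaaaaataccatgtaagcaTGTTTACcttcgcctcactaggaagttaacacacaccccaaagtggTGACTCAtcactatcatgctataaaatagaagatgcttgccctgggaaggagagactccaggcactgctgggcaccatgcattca
Mmp10, chr9:7502092-7502391: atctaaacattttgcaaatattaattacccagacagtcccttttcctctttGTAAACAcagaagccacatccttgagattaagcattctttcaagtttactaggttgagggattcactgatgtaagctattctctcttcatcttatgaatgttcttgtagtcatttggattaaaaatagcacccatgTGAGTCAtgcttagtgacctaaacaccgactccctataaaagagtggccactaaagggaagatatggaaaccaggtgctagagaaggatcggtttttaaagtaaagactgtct
Mmp3, chr9:7445572-7445871: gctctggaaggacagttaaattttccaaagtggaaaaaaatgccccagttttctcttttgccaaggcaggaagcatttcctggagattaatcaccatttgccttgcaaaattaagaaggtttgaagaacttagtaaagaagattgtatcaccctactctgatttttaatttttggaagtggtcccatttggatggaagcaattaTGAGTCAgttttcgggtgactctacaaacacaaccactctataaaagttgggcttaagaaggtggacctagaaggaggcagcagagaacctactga
Mmp8, chr9:7558179-7558478: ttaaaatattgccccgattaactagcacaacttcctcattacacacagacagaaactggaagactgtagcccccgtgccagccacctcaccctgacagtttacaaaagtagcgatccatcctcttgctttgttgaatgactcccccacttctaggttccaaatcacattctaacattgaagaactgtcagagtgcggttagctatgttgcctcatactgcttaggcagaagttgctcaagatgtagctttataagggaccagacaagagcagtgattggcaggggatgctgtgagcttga
The AP-1 match begins 35 bases before the start of Mmp13, 63 bases before that of Mmp10 and 46 bases before that of Mmp3. The FoxO motif was present in 3 of the 35 promoters (8.57%, against 3.65% of all), namely those of Mmp13, Mmp10 and Adamts13. The interferon response motif GAAANNGAA was present in 2 of the 35 (5.71%, against 8.56%), those of Mmp13 and Mmp27. In Mmp13 its matches overlap each other but neither of the other motifs. A match describes the letters only and is not a measured binding site.

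LRP1 eKO libraries had higher signals of the aggrecanase gene Adamts5, the collagenase genes Mmp13 and Mmp8, the stromelysin gene Mmp10 and the inhibitor genes Timp1 and Timp2, and lower signals of other members, among them Mmp23, Adamts9 and the stromelysin gene Mmp11. The 23 members that reached a signal of 1 or more in 4 or more of the 8 libraries were tested with limma among 11391 genes on the log2(signal + 1) scale, and every log2 fold change below is LRP1 eKO against WT on that scale, which understates changes of low signals. At an adjusted p below 0.05, 7 of 23 members were higher (30.4%, against 19% of all genes tested) and 6 were lower (26.1%, against 22.2%). The higher members were Adamts5, Mmp13, Mmp8, Mmp10, Timp2, Timp1 and Adamts14, and the lower members were Mmp23, Adamts9, Mmp11, Mmp19, Mmp2 and Adamts7. WT and LRP1 eKO signals did not overlap for 12 of the 23 (52.2%, against 42.6% of all genes). Changes were mostly under 2-fold, with 1 member higher past that limit (0.869% of all genes) and 0 lower (0.79% of all genes), a count that was also 0 at an unadjusted p below 0.05. The median log2 fold change of the 23 members was 0.13, against -0.0095 for all genes, and the median size of the change without regard to sign was 0.37 against 0.17. Of the 23 members, 22 had a signal of at least 1 in all 8 libraries, and the exception, Mmp8, had 0.791 in WT replicate 4.

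**Figure D1:**
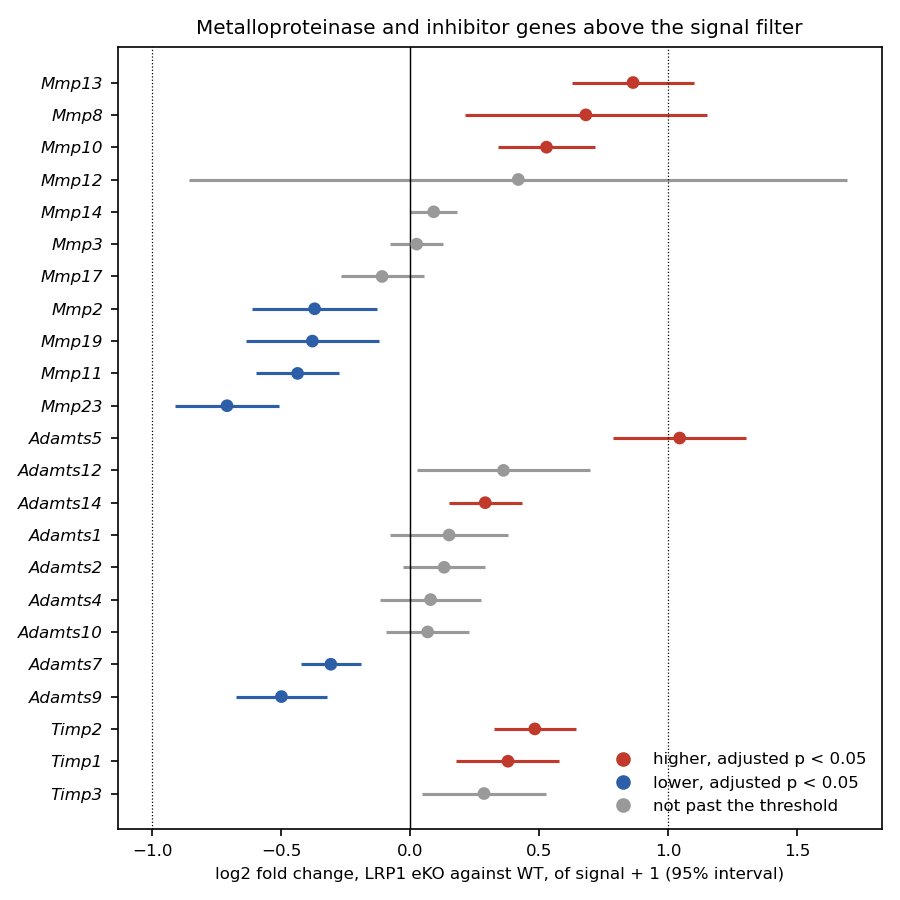
Log2 fold change of signal + 1, LRP1 eKO against WT, with 95% limma intervals, for the 23 members above the signal filter; dotted lines mark a 2-fold change. The 7 red members were higher and the 6 blue members lower at an adjusted p below 0.05, and Mmp12 has the widest interval, from -0.86 to 1.70.

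The inhibitors moved in opposite directions within the family, since Timp2 and Timp1 rose and Timp4 fell. Timp2, which blocks metalloproteinases and also helps MMP14 to activate pro-MMP2, had signals of 530, 548, 548 and 522 in WT, and 703, 878, 694 and 742 in LRP1 eKO libraries, always in the order of replicates 1 to 4. The groups did not overlap, and Timp2 rose by a log2 fold change of 0.48 (SE 0.071, limma adjusted p = 0.00063). Timp2 lies on chromosome 11 (118301069 to 118355740, minus strand), where Cep295nl, with signals of 2.48 to 4.95, overlaps it on the same strand.

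Timp1, an inducible inhibitor that is widely used as a mark of matrix remodelling in liver, had signals of 466, 474, 492 and 547 in WT and of 713, 543, 707 and 624 in LRP1 eKO libraries. LRP1 eKO replicate 2 lay just below WT replicate 4, and the other LRP1 eKO libraries lay above all WT libraries. The log2 fold change was 0.38 (SE 0.089, limma adjusted p = 0.0080), and the exact two-sided permutation test gave p = 0.057.

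Timp3, which is held in the matrix and inhibits ADAMTS5 as well as metalloproteinases, had signals of 522, 534, 540 and 390 in WT and of 621, 532, 666 and 591 in LRP1 eKO libraries. Its log2 fold change was 0.29 (95% interval 0.045 to 0.53, limma adjusted p = 0.057), and WT replicate 4 stood apart below the other libraries. Without LRP1 eKO replicate 2 the log2 fold change was 0.34 and the limma adjusted p 0.036. It was 0.24 without LRP1 eKO replicate 3 (limma adjusted p = 0.14), and 0.17 without WT replicate 4 (limma adjusted p = 0.068).

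Timp4, an inhibitor with a restricted tissue distribution, was below the filter. Its signals were 0.946, 0.883, 1.08 and 0.938 in WT and 0.286, 0.105, 0.370 and 0.255 in LRP1 eKO libraries. All LRP1 eKO libraries lay below all WT libraries, and the LRP1 eKO mean was 26.4% of the WT mean. Timp4 fell by 0.65 on the log2 scale in the fit without the filter (SE 0.065, limma adjusted p = 0.00036). The study had picked Timp4 for real-time PCR with results of these samples in hand, so its direction is not independent of that choice.

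Timp1, Timp3 and Timp4 each lie within a synapsin gene on the opposite strand, namely Syn1 on chromosome X, Syn3 on chromosome 10 and Syn2 on chromosome 6. Whether reads were counted by strand is not stated. The synapsin signals were 0.422 to 0.691 for Syn1, 0.0960 to 0.203 for Syn3 and 0.360 to 0.609 for Syn2.

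**Figure D2:**
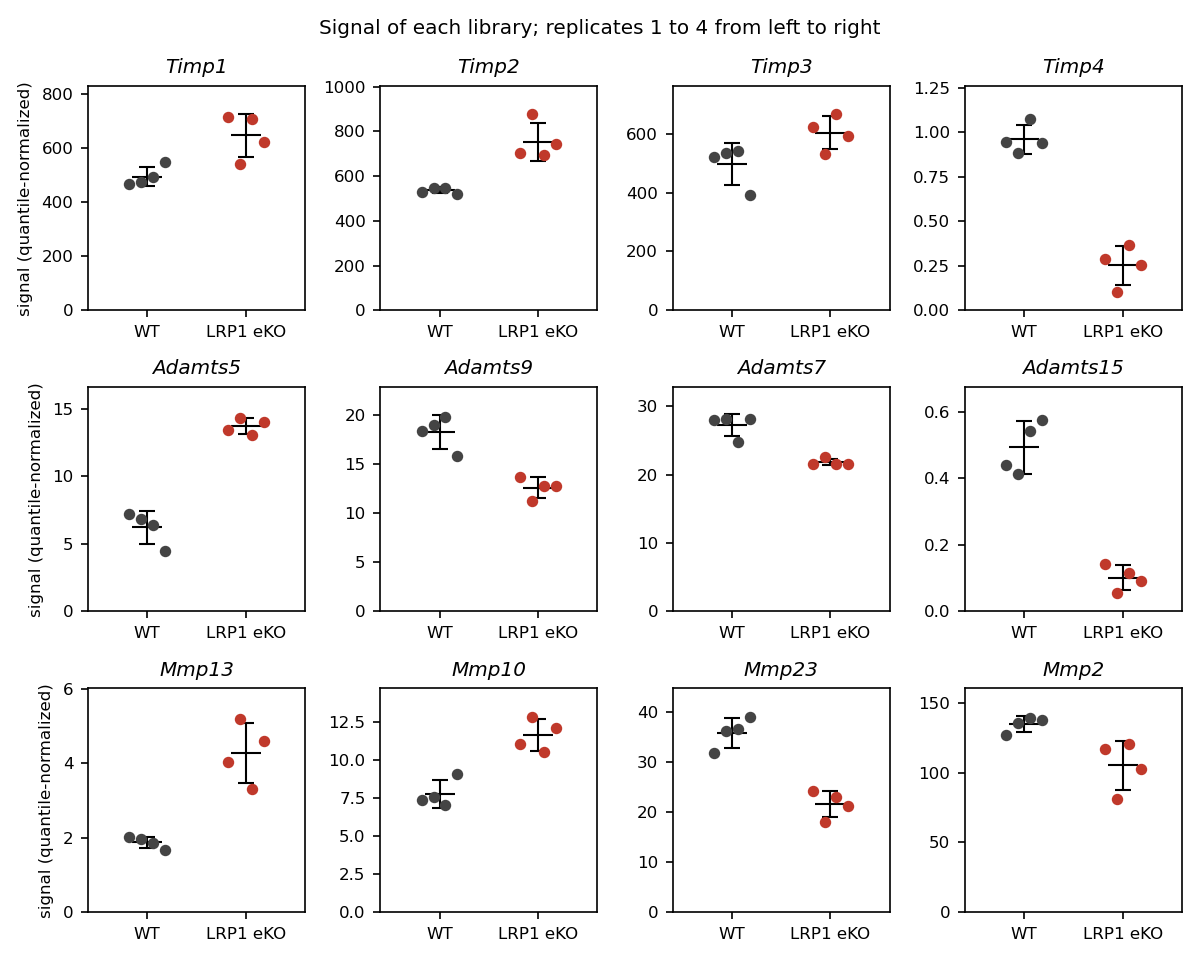
Quantile-normalized signal (vertical axes, each from 0) of 12 members in the WT (grey) and LRP1 eKO (red) libraries, replicates 1 to 4 from left to right; horizontal and vertical bars are the mean and the SD of 4 libraries. The groups do not overlap for Timp2, Timp4, Adamts5, Adamts9, Adamts7, Adamts15, Mmp13, Mmp10, Mmp23 and Mmp2, and they overlap for Timp1 and Timp3.

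Both collagenase genes above the filter rose. Mmp13, which encodes a collagenase that cleaves fibrillar collagens, had signals of 2.02, 1.98, 1.86 and 1.67 in WT and of 4.03, 5.20, 3.31 and 4.61 in LRP1 eKO libraries. Every LRP1 eKO library lay above every WT library, and the highest was LRP1 eKO replicate 2, which had the lowest macrophage markers. The mean rose 2.28-fold, with a log2 fold change between 0.78 and 0.96 when any library was left out. The study used Mmp13 as an example of a FoxO target on these samples, so that it is not an independent choice.

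Mmp8, the neutrophil collagenase, had signals of 1.03, 1.20, 1.34 and 0.791 in WT and of 3.46, 1.08, 3.12 and 2.23 in LRP1 eKO libraries. LRP1 eKO replicate 2 fell within the WT range, and the other LRP1 eKO libraries lay above it. The log2 fold change was 0.68 (SE 0.21, limma adjusted p = 0.027, exact two-sided permutation test p = 0.086). Its adjusted p rose to between 0.055 and 0.073 without WT replicate 1 or 4 or without LRP1 eKO replicate 1, 3 or 4. Leaving out LRP1 eKO replicate 2 gave a log2 fold change of 0.91. Of 12 neutrophil markers, 11 stayed under a signal of 1 in every library, 2 of them at 0, and their sum was 1.20 to 2.11 in WT and 1.73 to 4.10 in LRP1 eKO libraries.

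Mmp1b, a rodent relative of interstitial collagenase, was listed at 0 in WT replicates 1, 2 and 4 and at 0.0291 in WT replicate 3, and at 0.159, 0.174, 0.138 and 0.132 in LRP1 eKO libraries. The groups did not overlap, and the rise was called in the fit without the filter (limma adjusted p = 0.00015). Mmp1b overlaps Mmp12 by 1261 bases on the opposite strand. Its highest signal was in LRP1 eKO replicate 2, where Mmp12 was at its lowest. The other relative, Mmp1a, was listed at 0.0200 in WT replicate 4 and at 0 in the other libraries.

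Of the gelatinases, which digest denatured collagen and the collagen of basement membranes, Mmp2 fell and Mmp9 was near 0. Mmp2 (chromosome 8, 92827291 to 92853420) had signals of 126, 135, 139 and 137 in WT and of 117, 80.9, 120 and 102 in LRP1 eKO libraries. All LRP1 eKO libraries were below the WT libraries, and LRP1 eKO replicate 2 was the lowest. The log2 fold change was -0.37 (SE 0.11, limma adjusted p = 0.022), and the adjusted p was 0.052 without WT replicate 3 and 0.053 without LRP1 eKO replicate 4. Mmp9 had signals of 0.00863, 0.0325, 0.0365 and 0.0360 in WT and of 0.119, 0.121, 0.0544 and 0.0367 in LRP1 eKO libraries. The LRP1 eKO libraries were all above the WT libraries, by a margin of under 0.001 for LRP1 eKO replicate 4, and the limma adjusted p was 0.087.

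The stromelysin genes went in 3 ways. Mmp10 and Mmp3 encode enzymes that cleave proteoglycans and activate other proenzymes. Mmp10 had signals of 7.39, 7.59, 7.07 and 9.10 in WT and of 11.1, 12.9, 10.6 and 12.2 in LRP1 eKO libraries. It rose without overlap of the groups by a log2 fold change of 0.53 (SE 0.084, limma adjusted p = 0.0010). Mmp3, a neighbour in the cluster, had a mean of 57.4 ± 1.34 for WT and 58.5 ± 2.79 for LRP1 eKO libraries (SD, n = 4 each). Its log2 fold change had an interval from -0.076 to 0.13, and the limma adjusted p was 0.68.

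Mmp11, on chromosome 10, is activated inside the cell and is typically made by stromal cells. Its signals were 8.82, 8.48, 9.18 and 9.96 in WT and 7.36, 6.43, 6.05 and 6.08 in LRP1 eKO libraries. All LRP1 eKO libraries were lower, and Mmp11 fell by 0.44 on the log2 scale (SE 0.072, limma adjusted p = 0.0012). Chchd10, with signals of 14.0 to 20.3, overlaps Mmp11 on the opposite strand.

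Mmp12, the macrophage elastase, varied more within the groups than between them. Its signals were 13.8, 15.6, 17.4 and 7.57 in WT and 34.4, 3.74, 34.4 and 19.9 in LRP1 eKO libraries. The highest LRP1 eKO library was 9.21 times the lowest, and the log2 fold change of 0.42 had an interval from -0.86 to 1.70 (limma adjusted p = 0.58). Without LRP1 eKO replicate 2 the log2 fold change was 1.08 and the limma adjusted p 0.013. Without LRP1 eKO replicate 1 or 3 it was 0.11 each (limma adjusted p = 0.90), and without WT replicate 4 it was 0.18 (limma adjusted p = 0.84). In both groups the libraries had the order of the macrophage marker sum, and also that of the sinusoidal endothelial marker sum given below. In bulk libraries, fewer macrophages and less of this mRNA per macrophage cannot be told apart.

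Of 32 members with a mean signal of at least 0.1, 5 (15.6%, against 1.19% of all 13991 genes with such a mean) followed the order of the macrophage markers in both groups, namely Mmp12, Mmp8, Adamts2, Adamts12 and Adamts9. The order was seen in the LRP1 eKO group alone for 6 more, namely Mmp27, Mmp3, Mmp23, Adamts15, Adamts20 and Timp1, which makes 11 in that group (34.4%, against 7.32% of all such genes). Mmp27 had LRP1 eKO signals of 1.37, 0.474, 1.25 and 1.06, against 0.513, 0.450, 0.618 and 0.383 in WT libraries. Its log2 fold change was 0.43 in the fit without the filter (limma adjusted p = 0.057). With LRP1 eKO replicate 2 left out it was 0.58 (limma adjusted p = 0.0021). Mmp13 had another order in LRP1 eKO libraries, with replicate 2 the highest, then 4, 1 and 3. The macrophage marker order was not particular to those markers, since the sum of 8 sinusoidal endothelial markers had it in both groups. That sum was 8.60, 8.84, 10.9 and 7.55 in WT replicates 1 to 4. In LRP1 eKO replicates 1 to 4 it was 29.1, 8.09, 25.6 and 17.6. The part of macrophages or of sinusoidal endothelial cells in the Mmp12, Mmp8 and Mmp27 values was not tested.

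**Figure D3:**
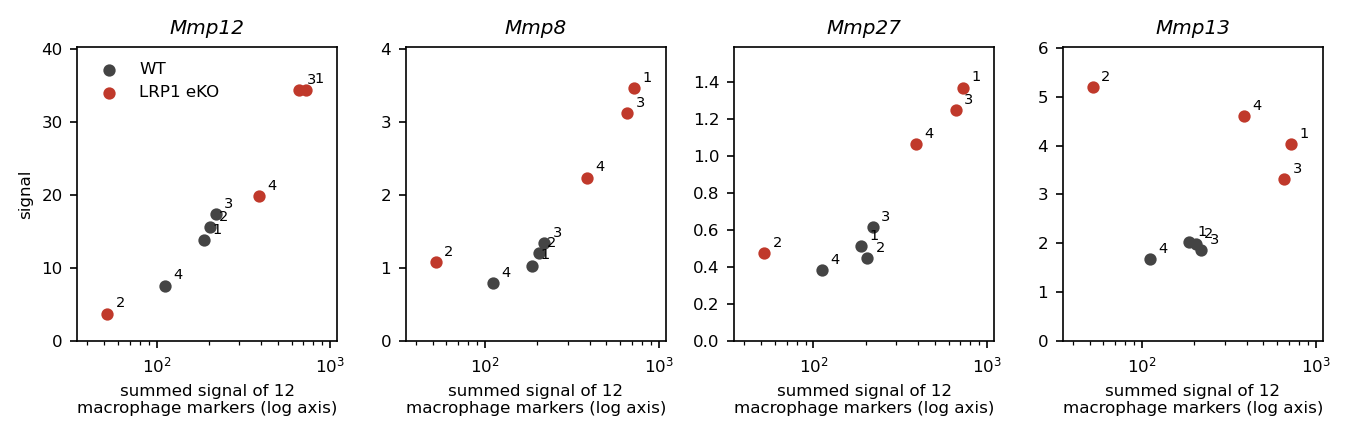
Signal of Mmp12, Mmp8, Mmp27 and Mmp13 (vertical axes, from 0) against the summed signal of 12 macrophage markers (horizontal, log axis) in the WT (grey) and LRP1 eKO (red) libraries, numbered by replicate. LRP1 eKO replicate 2 has the lowest marker sum, 52.1, with the lowest Mmp12 signal, 3.74, and the highest Mmp13 signal, 5.20.

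Among membrane-type metalloproteinases, which act at the cell surface, neither gene above the filter passed the threshold. Mmp14, which cleaves collagen and activates pro-MMP2, had signals of 227, 237, 243 and 223 in WT and of 246, 252, 246 and 246 in LRP1 eKO libraries. The groups did not overlap, but the difference was small, with a log2 fold change of 0.091 (95% interval 0.00094 to 0.18, limma adjusted p = 0.096). Identical values arise because quantile normalization gives genes of equal rank the same value. Mmp17, which is held by a lipid anchor, had means of 2.58 for WT and 2.32 for LRP1 eKO libraries (limma adjusted p = 0.25).

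Mmp15, below the filter, had signals of 0.209, 0.143, 0.154 and 0.136 in WT and of 0.305, 0.540, 0.324 and 0.278 in LRP1 eKO libraries. It was called higher in the fit without the filter (log2 fold change 0.23, limma adjusted p = 0.022), but the adjusted p was up to 0.058 without WT replicate 2, 3 or 4. Mmp16 had signals of 0.301 to 0.441 in WT and 0.353 to 0.960 in LRP1 eKO libraries and was not called (limma adjusted p = 0.099). Mmp24 stayed between 0.0558 and 0.107 and Mmp25 between 0 and 0.0548 over all libraries.

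Mmp23 and Mmp19 both fell. Mmp23, an unusual member that is anchored in the membrane by its amino terminus and lacks the hemopexin domain, lies on chromosome 4 (155650655 to 155653384). Its signals were 31.8, 36.2, 36.5 and 39.0 in WT and 24.2, 18.1, 22.9 and 21.2 in LRP1 eKO libraries. WT and LRP1 eKO libraries were separate, and Mmp23 fell by 0.71 on the log2 scale (SE 0.091, limma adjusted p = 0.00028), to 60.2% of the WT mean, which was the largest decrease among the 23 members tested.

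Mmp19, which cleaves basement membrane proteins, had signals of 25.4, 25.6, 25.7 and 22.8 in WT and of 21.8, 14.5, 21.9 and 18.4 in LRP1 eKO libraries. All LRP1 eKO libraries were lower, and the log2 fold change was -0.38 (SE 0.12, limma adjusted p = 0.025). Its adjusted p was 0.055 to 0.062 without WT replicate 1, 2 or 3 or without LRP1 eKO replicate 4. Tmem198b, with signals of 15.2 to 22.0, overlaps Mmp19 on the opposite strand.

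Of the other Mmp genes, Mmp28 had signals of 0.207 to 0.444 in WT and 0.391 to 0.482 in LRP1 eKO libraries (limma adjusted p = 0.12). Mmp7, the matrilysin of epithelia, stayed between 0 and 0.0391. The enamel proteinase gene Mmp20 and Mmp21, known for its role in left-right patterning, were listed at 0 in every library.

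**Figure D4:**
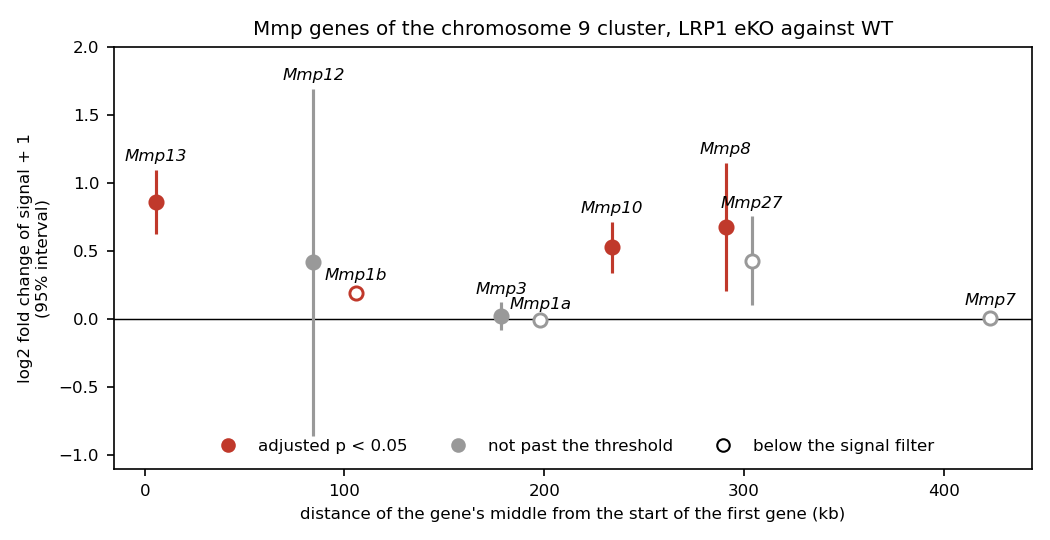
Log2 fold change of signal + 1 (LRP1 eKO against WT, 95% limma interval) of the Mmp genes of the chromosome 9 cluster, by the distance of the middle of each gene from the start of Mmp13 in kb; Mmp20, at 0 in every library, is left out. Mmp13, Mmp1b, Mmp10 and Mmp8 (red) were called higher, Mmp3 between them was at 0.025, and open circles are members below the filter.

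The proteoglycanases of the ADAMTS family cleave versican and aggrecan, and here they changed in both directions. Adamts5, a major aggrecan-cleaving enzyme, had signals of 7.19, 6.85, 6.39 and 4.44 in WT and of 13.4, 14.3, 13.1 and 14.0 in LRP1 eKO libraries. The lowest LRP1 eKO library was well above the highest WT library, and the mean went from 6.22 ± 1.23 up to 13.7 ± 0.564 (SD, n = 4 each), which is 2.21-fold. Its log2 fold change of 1.05 (SE 0.12, limma adjusted p = 0.00011) was the largest increase among the 23 members and the change past 2-fold. WT replicate 4 was the lowest library, and without it the log2 fold change was 0.91 and no member passed 2-fold.

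Adamts5 and Adamts1 are neighbours on chromosome 16, with 53.1 kb between them, both on the minus strand. Adamts1, which also cleaves versican, had means of 76.3 for WT and 84.0 for LRP1 eKO libraries, and the 58.5 of WT replicate 4 stood below the other 7 values of 79.7 to 86.3. The interval of its log2 fold change ran from -0.078 to 0.38 (limma adjusted p = 0.26). Adamts4, the other main aggrecanase gene, had means of 1.39 and 1.51 (limma adjusted p = 0.49).

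Adamts9, which cleaves versican and is expressed in the vasculature, had signals of 18.4, 19.0, 19.8 and 15.8 in WT and of 13.7, 11.2, 12.8 and 12.8 in LRP1 eKO libraries. Every LRP1 eKO library was lower, and Adamts9 fell by 0.50 on the log2 scale (SE 0.079, limma adjusted p = 0.00099). Adamts15, below the filter, had signals of 0.440, 0.414, 0.543 and 0.576 in WT and of 0.144, 0.0556, 0.114 and 0.0922 in LRP1 eKO libraries. Its LRP1 eKO mean was 20.6% of the WT mean, and it was called lower in the fit without the filter (log2 fold change -0.44, limma adjusted p = 0.00027).

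Adamts20 was also called lower without the filter, from 0.402 to 0.590 in WT to 0.209 to 0.323 in LRP1 eKO libraries, 53.4% of the WT mean (limma adjusted p = 0.0049). Adamts8, the neighbour of Adamts15 on chromosome 9 at 20.1 kb, was at 0.0315 or less in all libraries and was not called (limma adjusted p = 0.13).

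The procollagen N-proteinases remove the amino-terminal propeptide of fibrillar procollagens. Adamts14 had signals of 3.48, 3.44, 3.21 and 3.00 in WT and of 4.53, 4.14, 4.34 and 3.95 in LRP1 eKO libraries. It rose without overlap by a log2 fold change of 0.29 (SE 0.063, limma adjusted p = 0.0053). Adamts2 had means of 19.8 for WT and 21.9 for LRP1 eKO libraries (log2 fold change 0.13, limma adjusted p = 0.16). With LRP1 eKO replicate 2 left out its log2 fold change was 0.19 (limma adjusted p = 0.037), and with LRP1 eKO replicate 1 left out 0.081 (limma adjusted p = 0.39). Adamts3, below the filter, had signals of 0.611 to 0.721 in WT and 0.326 to 0.437 in LRP1 eKO libraries and was called lower without the filter, at 61.5% of the WT mean (limma adjusted p = 0.0022).

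Adamts7 and Adamts12 cleave cartilage oligomeric matrix protein. Adamts7 had signals of 28.0, 28.2, 24.8 and 28.2 in WT and of 21.6, 22.5, 21.6 and 21.6 in LRP1 eKO libraries. WT and LRP1 eKO libraries were again separate, and Adamts7 fell by 0.31 on the log2 scale (SE 0.052, limma adjusted p = 0.0014). Tbc1d2b, with signals of 25.4 to 32.0, overlaps it on the opposite strand. Adamts12 had means of 5.11 ± 1.18 for WT and 6.79 ± 1.07 for LRP1 eKO libraries (SD, n = 4 each). The difference on the log2 scale was 0.36 (95% interval 0.028 to 0.70, limma adjusted p = 0.077), and 0.21 without WT replicate 4 (limma adjusted p = 0.13).

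Adamts13, which cuts von Willebrand factor and is made in liver by stellate cells, was listed at 0, 0, 0.0143 and 0.0126 in WT and at 0, 0.00750, 0.00442 and 0.00505 in LRP1 eKO libraries. It was at or near 0 in both groups, and no fold is given. Vwf, the gene of its substrate, had means of 0.450 for WT and 0.448 for LRP1 eKO libraries.

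Adamts6 and Adamts10 are close relatives that act on fibrillin microfibrils. Adamts6, below the filter, had signals of 0.154, 0.177, 0.139 and 0.110 in WT and of 0.383, 0.400, 0.484 and 0.366 in LRP1 eKO libraries. No library of either group entered the range of the other, the mean rose 2.82-fold, and Adamts6 was called higher in the fit without the filter (log2 fold change 0.30, limma adjusted p = 0.00039). Adamts10 had means of 11.1 for WT and 11.6 for LRP1 eKO libraries (limma adjusted p = 0.47). Adamts16 was at 0.0193 or less and Adamts19 at 0.0159 or less in all libraries. Adamts17 was between 0.00266 and 0.299, with the highest value in WT replicate 1, and Adamts18 was listed at 0 in every library.

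Of the 23 members below the filter, 3 were at 0 in all libraries and 20 were fitted without the filter. Mmp1b, Mmp15 and Adamts6 were called higher (15% of 20, against 4.89% of the 6568 genes of this kind), and Timp4, Adamts15, Adamts20 and Adamts3 were called lower (20%, against 7.4%). The highest value of any of the 23 in any library was 1.37, for Mmp27.

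Related genes of the pathway were taken from lists of known partners and are described by their counts. For comparison with the counts of each list, 19% of all genes tested were higher and 22.2% lower. Among other inhibitors and binding partners, 3 of 8 tested genes were higher and 2 lower, with a median log2 fold change of 0.073 against -0.0095 for all genes. Cd44, a hyaluronan receptor that holds MMP9 and other metalloproteinases at the cell surface, rose from 23.8 ± 4.15 to 58.5 ± 1.71 (SD, n = 4 each), or by 1.28 on the log2 scale (limma adjusted p = 2.2e-05). Reck, a membrane-anchored inhibitor of metalloproteinases, had means of 5.52 for WT and 5.88 for LRP1 eKO libraries (limma adjusted p = 0.39).

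Among the uptake receptors of these proteinases, 3 of 8 were higher and 2 lower, with a median of 0.10, and Lrp1, the deleted gene, is 1 of those lower. Vldlr, which belongs with Lrp1 to a family of lipoprotein receptors, rose from 9.13 to 15.4 (limma adjusted p = 0.00016). Lrpap1, the chaperone of the family, had means of 78.3 for WT and 80.0 for LRP1 eKO libraries (limma adjusted p = 0.68).

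Of the ADAM metalloproteinases, which shed membrane proteins, 2 of 10 tested genes were higher and 0 were lower, with a median of 0.17. Adam9 rose from 135 ± 22.9 to 215 ± 4.56 and Adam19 from 6.26 ± 0.555 to 9.25 ± 1.04 (SD, n = 4 each, limma adjusted p = 0.0011 and 0.0015). Adam10 and Adam17, the main sheddases, had limma adjusted p of 0.20 and 0.11. Of 4 ADAMTS-like genes tested, 0 passed the threshold, with a median of 0.016. Of 7 activators of proenzymes, Plaur was higher and Plat and Plau, the plasminogen activator genes, were lower, with a median of 0.033. Of 2 tested astacins, Bmp1 and Tll1, the procollagen C-proteinases, both rose, by log2 fold changes of 0.38 and 0.67 (limma adjusted p = 0.0011 and 0.0029).

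Among ADAMTS substrates, 1 of 3 tested genes was higher and 2 were lower, with a median of -0.48. Vcan, the gene of versican, rose from 6.24 ± 0.265 to 11.3 ± 0.526 (SD, n = 4 each, limma adjusted p = 6.8e-06), while Fbln1, whose product is a cofactor of ADAMTS1, fell from 9.53 to 4.81 (limma adjusted p = 0.00025) and Thbs1 fell from 625 to 442 (limma adjusted p = 0.025). Among transcription factors known for metalloproteinase genes, 6 of 13 tested were higher and 1 was lower, with a median of 0.15. Jun rose from 12.8 to 18.1 and Ets1 from 6.70 to 8.90, while Etv4 fell from 19.0 to 13.3 (limma adjusted p = 0.00052, 0.00056 and 0.00048). Fos, the AP-1 partner of Jun, rose from 21.6 to 29.5 (limma adjusted p = 0.0066).

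Markers of other cell types differed between the groups beside these members. The summed signal of 8 hepatocyte markers was 92.3 to 139 in WT and 33.3 to 44.5 in LRP1 eKO libraries, and that of 7 skeletal muscle markers 32.6 to 56.4 and 5.96 to 7.44. Smooth muscle markers summed to 1453 to 1516 in WT and 1798 to 1879 in LRP1 eKO libraries. Mesothelial markers summed to 2205 to 2612 and 2832 to 3090, and 8 endothelial markers to 32.5 to 37.3 and 41.0 to 62.1. Of 7 endothelial genes tested, Eng and Cdh5 rose (limma adjusted p = 0.00019 and 0.020) and 5 were not called. Eng, with means of 12.4 for WT and 24.3 for LRP1 eKO libraries, alone of the 8 had groups that did not overlap. Of the 5 mesothelial genes, Msln and Upk1b rose (limma adjusted p = 0.0075 and 0.0010) and Krt8 fell (limma adjusted p = 0.033), and the median log2 fold change of the list was -0.077. The 6 erythroid markers in the table summed to 24.73 to 46.3 in WT and 14.6 to 24.69 in LRP1 eKO libraries. Alas2, an enzyme of heme synthesis in red cells, made up most of that sum and fell (limma adjusted p = 0.043). The 46.3 of WT replicate 2 included Hba-a1 at 8.51 and Hba-a2 at 11.1, both at 0 in the other 7 libraries. The sums of stellate and fibroblast markers overlapped, at 2196 to 2512 and 1928 to 2443. So did those of 8 sinusoidal endothelial markers, at 7.55 to 10.9 and 8.09 to 29.1, and of cholangiocyte markers, at 301 to 356 and 234 to 696. Megakaryocyte sums overlapped too, at 4.29 to 4.66 and 3.25 to 11.8. Single genes of these lists still differed. Of 10 stellate and fibroblast genes tested, Dcn, Lum and Pdgfra fell (limma adjusted p = 0.00054, 0.00057 and 0.00031). Hgf rose (limma adjusted p = 0.012) and 6 were not called. Of 4 sinusoidal genes tested, Oit3 rose (limma adjusted p = 0.00022) and 3 were not called. Of 3 cholangiocyte genes tested, Krt7 fell (limma adjusted p = 0.00044) and 2 were not called. Lymphocyte markers summed to at most 0.191. The part of these cell types in the Mmp, Adamts and Timp changes was not tested.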

How the data were processed

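The mRNA-seq libraries of 4 WT and 4 LRP1 eKO liver cell preparations were assigned to groups by their sample labels. The table that the authors deposited holds a signal, quantile-normalized across the libraries, for each of 22520 protein-coding genes, and all its sample columns were used. The paper's methods describe trimming with trimGalore, mapping to mm10 with STAR, counting with featureCounts and testing with edgeR, whereas the submitters' processing notes name TopHat2 and Cufflinks. Neither describes the quantile normalization, which removes any global shift between groups, and the unit before it, the depth and the strand setting are not given in the sources used here. The deposited signal, not counts, was therefore tested with limma 3.58.1 in R 4.3.3 on log2(signal + 1), with genotype as the only term, a trend of the variance with the mean and p-values adjusted by Benjamini-Hochberg over the 11391 genes that reached a signal of 1 in 4 or more of 8 libraries. Members below this filter were fitted without it among 17959 genes. Exact two-sided permutation tests of 4 against 4 libraries cannot give a p below 0.029.

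The members and all gene lists were chosen with earlier results of these data known. Values in every library were to be given for members with an adjusted p below 0.05, for Timp1 to Timp4 and for Mmp2, Mmp9, Mmp13, Mmp14 and Adamts13, other members above the filter by group means or fold change and the rest by range. The library values of Mmp12, Mmp27 and Mmp1a, and the related genes Reck, Vwf, Lrpap1, Adam10, Adam17, Plaur, Plat, Plau and Fos, were added after their values were seen. Gene positions came from GENCODE M21 (GRCm38), in which 21740 of 22520 identifiers and all 46 members were found, and promoters from RefSeq. Protein sequences were not analysed here, and results of some related genes are not reported here. Plots were made in Python 3.11.15 with matplotlib 3.10.9. The alternatives tried were no filter, a mean signal of at least 5, pseudocounts of 0.1 and 5, limma with array weights, with robust moderation or without the trend, centring each library on a trimmed mean, a ratio of arithmetic means, a replicate block, and leaving out each library or WT replicate 4 together with LRP1 eKO replicate 2.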

Additional observations from a re-analysis of the deposited data

Results flagged for a closer look

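A library stood apart from the other 3 of its group when its gap to the nearest of them, as a share of the group's range, was above Dixon's 95% critical value for 4 samples. This was examined in 64 groups, the WT and LRP1 eKO groups of the 32 members with a mean signal of at least 0.1, and 6 groups met it, where chance alone gives about 1 in 20 groups.

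WT replicate 4 was the low library for Timp3 (gap 0.882 of the range), Mmp19 (0.927) and Adamts1 (0.841), and WT replicate 3 for Adamts7 (0.944). LRP1 eKO replicate 2 was the high library for Adamts7 (0.980) and for Mmp14, where the gap was the whole range (1.00) because the other 3 libraries had the same value. The part of the low macrophage markers of WT replicate 4 and LRP1 eKO replicate 2 in these gaps was not tested.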

How the results depend on the processing

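None of the 32 members with a mean signal of at least 0.1 changed direction under any alternative run. With a mean signal of at least 5, 4 members were higher, since fewer low genes were tested, and with WT replicate 4 and LRP1 eKO replicate 2 left out together, 11 were higher. Leaving out each library gave 6 to 10 higher and 4 to 6 lower members, and 0 to 2 members higher past 2-fold. At 2-fold, 3 members were higher with a pseudocount of 0.1 (Adamts5, Mmp13 and Mmp8) and 0 with a pseudocount of 5, with array weights or with those libraries left out together. No member above the filter was lower past 2-fold under any of them. Below it, members with a mean signal under 0.1, among them Mmp1b, were left out of this comparison. For the others a pseudocount of 0.1 with no filter was used. Timp4 was then lower past 2-fold, at a log2 fold change of -1.64, as was Adamts15 at -1.57, and Adamts6 was higher at 1.06. As a log2 ratio of arithmetic means these were -1.92, -2.28 and 1.49, and Mmp15 and Mmp27 were also higher past 2-fold, at 1.17 and 1.08. With no filter, 9 members were higher and 9 lower, and Mmp8 and Mmp19 lost their calls. Array weights gave 10 higher.

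With the replicate number as a block, 9 members were higher and 6 lower, the gains being Timp3 and Adamts12. The labels do not state that the numbers pair the libraries. Deviations of same-numbered libraries correlated at -0.086, -0.13, 0.18 and 0.038 for replicates 1 to 4. These values cannot decide whether libraries are paired, because differently numbered libraries are not given for comparison. No library depth is known, so counting error could not be computed, and members with signals far below 1 are limited most.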
